A study of Mus musculus with 15 samples.

Results

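The 10 genes described here are known from pluripotent cells and from primordial germ cells, the embryonic founders of eggs and sperm: Pou5f1, Nanog, Zfp42, Dppa2, Dppa3, Dppa4, Dppa5a, Tex19.1, L1td1 and Prdm14. They were chosen by name, with earlier results of these data known. All 10 were found among the 46517 genes of the deposited count files. The samples were kidneys of C57BL/6 mice. Poly-A RNA was sequenced from 3 control samples (Dnmt1 f/f) and 3 knockout samples (KO, Six2Cre Dnmt1 f/f), all at postnatal day 0 (P0). DNA methylation was read by reduced representation bisulfite sequencing (RRBS), which covers CpG-rich restriction fragments, in 3 controls (Dnmt1 f/f, P0), 3 KO samples (Six2Cre Dnmt1 f/f, P0) and 3 wild-type adults of 6 weeks. Controls and KO carried the floxed Dnmt1 alleles alike, and only the KO carried the Cre.

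DNMT1 is the methyltransferase that copies CpG methylation onto the new strand when DNA is replicated. Most genes of pluripotency are shut in somatic tissue, some with methylated regulatory DNA and some without, and a class of germline genes is held silent mainly by promoter methylation. Six2 marks the nephron progenitors of the embryonic kidney, so a Six2-driven Cre acts in these cells and their descendants (podocytes and most tubule segments), while the ureteric bud, stroma, endothelium and blood cells lie outside that lineage. The labels name Six2+ cells as the source, but their extraction protocol names whole kidneys for the DNA. Markers of other lineages were present in the RNA. The summed level of 4 stromal markers was 1176 to 1607 CPM, reads scaled to TMM-adjusted library sizes, in the controls and 1302 to 1477 in the KO, and that of 4 endothelial markers was 446 to 660 and 295 to 379 CPM.

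The upstream sequences of 4 genes are shown first: Tex19.1 and L1td1 because their RNA separated the groups, and Zfp42 and Pou5f1 because, as for Tex19.1, methylation calls fell near their starts. Each is the 250 bases before an annotated start, from RefSeq's GRCm38.p6 annotation, written 5′ to 3′ on the gene's own strand, with CpG dinucleotides in capitals. Tex19.1 lies on the plus strand (chr11:121145893-121146142), as do L1td1 (chr4:98726504-98726753) and the first of 2 Pou5f1 starts (chr17:35505782-35506031), and Zfp42 on the minus strand (chr8:43307010-43307259).
Tex19.1: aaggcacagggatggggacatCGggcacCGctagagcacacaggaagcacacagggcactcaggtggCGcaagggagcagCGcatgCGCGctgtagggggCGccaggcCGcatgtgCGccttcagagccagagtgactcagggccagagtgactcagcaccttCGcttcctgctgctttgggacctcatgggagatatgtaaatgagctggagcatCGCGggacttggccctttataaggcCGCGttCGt
L1td1: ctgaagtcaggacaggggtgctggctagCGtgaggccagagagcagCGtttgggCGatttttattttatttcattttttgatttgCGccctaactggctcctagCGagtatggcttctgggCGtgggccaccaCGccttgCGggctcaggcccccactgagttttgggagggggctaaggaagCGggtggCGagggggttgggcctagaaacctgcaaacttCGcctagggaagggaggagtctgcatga
Zfp42: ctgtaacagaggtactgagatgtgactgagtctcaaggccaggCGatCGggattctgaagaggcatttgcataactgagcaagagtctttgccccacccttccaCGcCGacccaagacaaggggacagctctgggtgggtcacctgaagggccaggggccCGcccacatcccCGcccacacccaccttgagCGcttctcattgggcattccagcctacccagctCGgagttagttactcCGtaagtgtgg
Pou5f1: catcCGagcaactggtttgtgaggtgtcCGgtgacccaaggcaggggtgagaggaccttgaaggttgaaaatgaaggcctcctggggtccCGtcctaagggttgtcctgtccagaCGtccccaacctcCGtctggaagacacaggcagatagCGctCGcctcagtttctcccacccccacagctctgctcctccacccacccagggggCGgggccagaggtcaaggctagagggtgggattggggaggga

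The Tex19.1 sequence held 15 CpGs, more than 72.7% of the 32851 upstream windows in the table, whose median was 6. L1td1 had 11, Zfp42 9 and this Pou5f1 window 8. The 2 Nanog windows held 3 and 2, below that median. Upstream sequence was at hand for these 5 of the 10 genes. The motif GCGGGA, or its reverse complement TCCCGC, to which E2F factors can bind, was found among these 5 genes in Tex19.1, 33 bases before the start, and in 16.9% of all windows. The octamer ATGCAAAT, or ATTTGCAT, the sequence read by POU factors, was found in Zfp42, 186 bases before the start, and in 1.6% of all windows. The E-box CACGTG was in none of the 5 genes' windows and in 6.02% of all windows. None of these matches overlaps another, and a match is a description of the sequence.

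The RNA libraries held 26773937 to 34102567 reads counted to genes. Reads without a unique alignment, which are in no gene's count, made up 14.0% to 24.6% of each control library and 22.5% to 28.0% of each KO library. The RRBS samples held 18424875 calls (KO 3) to 88765177 calls (control 2), a call being 1 read of 1 cytosine, and KO 3 was the shallowest with a median of 4 calls per position. Dnmt1 itself had 5908, 4826 and 6921 reads in the controls and 3526, 3378 and 2467 in the KO. Every KO library was below every control, with a log2 fold change of -0.74 (SE 0.12, adjusted p = 0.00577, edgeR's quasi-likelihood test with Benjamini-Hochberg adjustment). In bulk RNA, fewer cells of a type and less RNA per cell cannot be told apart. The model p-values set a difference against the spread between these samples, moderated over all features tested. The labels do not say whether the samples of a group are separate animals, so that spread may not be one between animals.

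Transcripts of 2 of the 10 genes, Tex19.1 and Dppa2, rose in the KO, L1td1 missed the threshold, and the other 7 had at most 5 reads in any library. Tex19.1, which restrains retrotransposons in germ cells, had 0, 1 and 0 reads in the controls and 354, 319 and 352 in the KO. Its level was 0.0108 ± 0.0187 CPM in the controls and 11.6 ± 1.55 CPM in the KO (SD, n = 3 each). The groups lay far apart. Summed over each group and scaled to library size, the ratio of KO to control was 1159 (95% interval 207 to 45809, for counting error only, since the controls had 1 read in all). The fitted log2 fold change was 9.70 (SE 0.52, adjusted p = 5.01e-05, edgeR), and its size depends on how a single control read is treated.

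Dppa2, a DNA-binding protein that pairs with DPPA4 at promoters in embryonic stem cells, had 1, 0 and 0 reads in the controls and 11, 13 and 19 in the KO. The KO level was 0.497 ± 0.199 CPM (SD, n = 3), so the transcript stayed rare where it was found. The ratio of summed reads was 48.6 (95% interval 8.27 to 1964), and the log2 fold change 5.16 (SE 0.82, adjusted p = 0.00458, edgeR). Dppa4 itself, 15982 bases away on chromosome 16, had 3, 0 and 0 reads in the KO and none in the controls, and it was too low to be tested.

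L1td1, an RNA-binding protein descended from the first open reading frame of LINE-1 elements, was the member already present in the controls. It had 52, 23 and 35 reads there and 84, 76 and 62 in the KO, which is 1.09 ± 0.437 against 2.49 ± 0.130 CPM (SD, n = 3 each). All 3 KO libraries were above all 3 controls, a pattern found in 16.5% of the genes tested. The log2 fold change of 1.18 (SE 0.34) did not pass (adjusted p = 0.0509, edgeR). It passed under 5 of 13 alternative settings, among them DESeq2 (adjusted p = 0.0138) and limma voom (0.0372), and over all 13 the adjusted p ran from 0.0138 to 0.170.

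The 2 transcription factors at the centre of the pluripotency network stayed near 0. Nanog had 2, 3 and 5 reads in the controls and 3, 2 and 4 in the KO, a ratio of 1.02 (95% interval 0.366 to 2.79). Pou5f1, which encodes OCT4, had 1 read in control 3 and none elsewhere. Zfp42, the REX1 zinc finger gene used as a marker of naive pluripotency, had 2, 0 and 3 reads against 3, 1 and 1, a ratio of 1.13 (95% interval 0.260 to 4.91). These intervals are wide, so a change of 2-fold in either direction lies inside both ratios.

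Among the genes of germ cell founding, Prdm14, which drives the specification of primordial germ cells, had 0, 0 and 1 reads in the controls and 2, 1 and 0 in the KO. Dppa3, which protects methylation in the early embryo, had no read in any of the 6 libraries. A count of 0 allows up to 3 reads, or 0.0814 to 0.114 CPM by library. Dppa5a, an RNA-binding protein of embryonic stem cells, had 1, 3 and 2 reads against 0, 2 and 3. Nanog, Pou5f1, Dppa3 and Dppa5a have processed copies elsewhere in the mouse genome, and reads shared with such a copy are in no gene's count here, so low counts of these 4 genes are uncertain.

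edgeR's filter on low counts kept 3 of the 10 genes, and 2 of them were called higher, beside 6.36% of the 18132 genes tested that were called higher and 8.23% called lower. Tex19.1 and Dppa2 passed that filter through their KO reads alone, so the count of 2 among 3 is no support for a shift of the set. Without any filter the other 7 genes still did not pass, and L1td1 passed narrowly (adjusted p = 0.0489, edgeR).

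**Figure D1:**
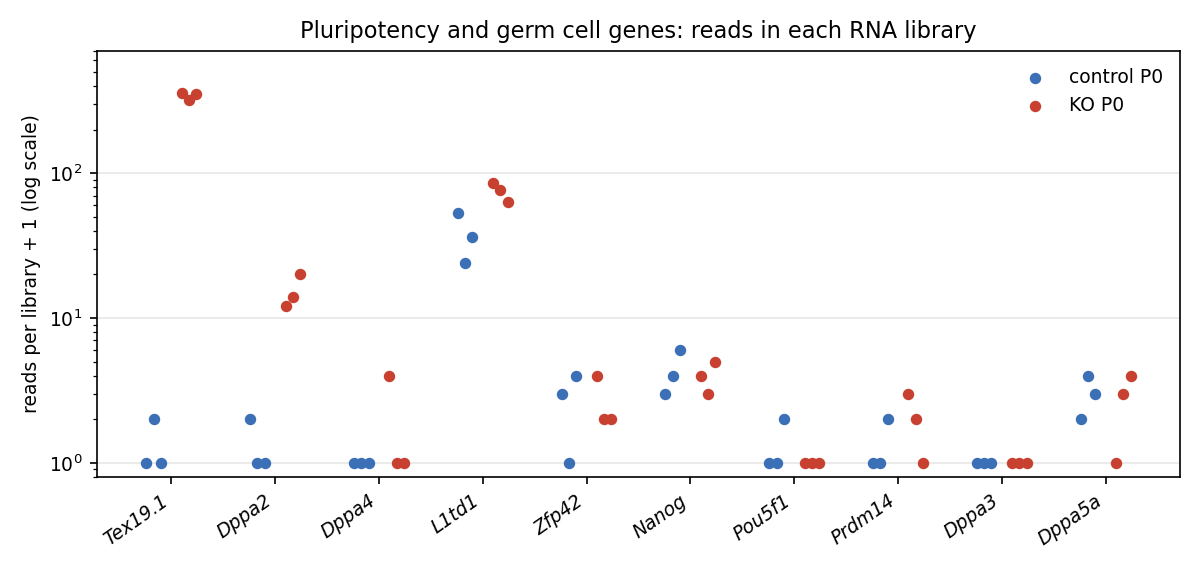
Reads counted to each of the 10 genes in each RNA library, plus 1 so that 0 can be drawn, on a log axis. Points are single libraries, 3 controls and 3 KO. Tex19.1 and Dppa2 separate the groups by more than any other member, L1td1 separates them by less, and the remaining 7 genes lie at 0 to 5 reads.

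Neighbouring genes were read to see whether a whole stretch of chromosome moved. Tex19.2, the paralog of Tex19.1 and its nearest neighbour on the lower-coordinate side, 27466 bases away on chromosome 11, had 2, 2 and 4 reads in the controls and 39, 29 and 33 in the KO (log2 fold change 3.78, SE 0.42, adjusted p = 0.000920, edgeR). As paralogs, the 2 genes may share reads. Uts2r, the receptor gene on the other side of Tex19.1, had 2, 0 and 1 reads in the KO and none in the controls. Gdf3, a TGF-beta family ligand of pluripotent cells next to Dppa3, had 1, 0 and 1 reads in the KO. The genes beside L1td1 (Patj and Kank4), Pou5f1 (Tcf19), Nanog (Slc2a3) and Prdm14 (Ncoa2) did not pass. Beside Dppa5a, Ooep, an oocyte gene 8704 bases away, had a log2 fold change of 0.12 and did not pass, and Gsta2, a glutathione transferase gene 19860 bases away on the other side, fell by 2.17 on the log2 scale (SE 0.21, adjusted p = 0.000481, edgeR).

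The genes whose levels were most like those of Tex19.1, by Euclidean distance of log2(CPM + 1) over the 6 libraries, were Usp17lb (0.0784), Pet2 (0.146), Pkd1l2 (0.457), Slc25a31 (0.466) and Xlr3c (0.476). Usp17lb, one of a family of near-identical deubiquitinase genes and so uncertain in its count, had no control read and 347, 333 and 349 KO reads. Slc25a31, an ADP/ATP carrier of the testis, had 1, 2 and 3 control reads and 405, 398 and 435 KO reads. These 5 genes were picked for that likeness, which is therefore no separate finding.

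The wider pathway was read through lists chosen by function, with earlier results of these data known. Of 24 other genes of the pluripotency network, 13 were tested, 2 rose and 1 fell, beside 6.36% of all tested genes called higher and 8.23% called lower. The median log2 fold change was 0.02 against 0.00 over all tested genes. Zscan10, a zinc finger factor of embryonic stem cells, rose from 3, 6 and 2 reads to 17, 21 and 23 (log2 fold change 2.61, SE 0.51, adjusted p = 0.0118, edgeR). It passed the filter on low counts through its KO reads alone, so the count of 2 that rose is no support for a shift of the set. Klf5, a Krüppel-like factor that is also made in epithelia, rose by 1.38 on the log2 scale (SE 0.31, adjusted p = 0.0197, edgeR). Esrrb, an orphan nuclear receptor of both naive pluripotency and kidney tubules, fell by 3.51 (SE 0.38, adjusted p = 0.000837, edgeR), from 698, 707 and 575 reads to 44, 86 and 27. Tfcp2l1 and Tbx3, the most abundant genes of the list, had log2 fold changes of -0.80 and 0.46 and did not pass. Sox2, Lin28a and Sall4 had at most 6 reads in a library and were not tested.

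Tubule markers moved with Esrrb. All 5 tubule markers fell, and their summed level was 2122 to 3884 CPM in the controls and 314 to 388 CPM in the KO. All 4 podocyte markers fell as well, beside 8.23% of all tested genes called lower and 6.36% called higher. Of 6 nephron progenitor markers, 2 rose and 1 fell, and their summed level was 322 to 375 CPM in the controls and 374 to 412 CPM in the KO. Of 4 stromal markers 2 rose, of 4 ureteric and 4 leukocyte markers 1 each rose, and none of these fell. Of 4 endothelial markers 2 fell and none rose. None of the 3 erythroid markers tested passed. The part of these cell types in the values of Esrrb, and of Alpl below, was not tested.

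Of 14 genes of germ cell formation, 13 were tested, 3 rose and 1 fell, with a median of 0.52. Over all tested genes, 6.36% were called higher and 8.23% lower. Dazl passed the filter on low counts through its KO reads alone, so neither this count nor the median is support for a shift of the set. Dazl, an RNA-binding protein that licenses germ cells for gamete formation, had 0, 5 and 4 control reads and 2060, 1780 and 2532 KO reads (log2 fold change 9.61, SE 0.47, adjusted p = 3.67e-05, edgeR). Elavl2 rose by 2.36 (SE 0.42, adjusted p = 0.00753, edgeR). Ddx4, the germ cell RNA helicase also called Vasa, rose by 2.02 (SE 0.40, adjusted p = 0.0123, edgeR) and is named after its values were seen. Alpl, the alkaline phosphatase that stains primordial germ cells and is also made in proximal tubules, fell by 2.38 (SE 0.45, adjusted p = 0.0102, edgeR). Ifitm3, an abundant membrane protein of the list, was at 66.0 ± 12.6 CPM in the controls and 75.4 ± 17.8 CPM in the KO (SD, n = 3 each) and did not pass. Prdm1 and Tfap2c, which act beside Prdm14 in specifying these cells, had log2 fold changes of -0.60 and 0.87 and did not pass.

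Of 15 germline genes listed as held silent by promoter methylation, all were tested, 12 rose and none fell, beside the 6.36% and 8.23% of all tested genes. Of the 12, 11 had at most 4 reads in each control and passed the filter on low counts through their KO reads alone, so neither this count nor the list's median is support for a shift of the set. The median log2 fold change was 5.52, or 4.54 when the 4 genes without a control read (Rpl10l, Hormad1, Mov10l1 and Fkbp6) were set to their lower bound against 3 reads over the control group. Slc25a31 rose by 7.79 (SE 0.35, adjusted p = 2.35e-05, edgeR) and Asz1, a piRNA pathway protein, by 7.03 (SE 0.55, adjusted p = 0.000197, edgeR). Mov10l1, the piRNA helicase, had no control read and 171, 182 and 196 KO reads, which is at least 207-fold higher. Sycp3, Tdrkh and Brdt did not pass, and they were not silent in the controls. Sycp3 had 27, 33 and 51 control reads, Tdrkh 372, 284 and 390, and Brdt 130, 167 and 124. Of 12 genes of the early germ layers, 4 were tested, 1 rose and 1 fell, beside the same shares of all tested genes. Foxa2, a factor of the endoderm, rose by 2.64 (SE 0.42, adjusted p = 0.00465, edgeR), and Sox17, which is also made in endothelium, fell by 0.56 (SE 0.14, adjusted p = 0.0358, edgeR). Foxa2, with 2, 3 and 3 control reads, passed the filter on low counts through its KO reads alone, so this count is no support for a shift either. Gata6 and Pou3f1 had log2 fold changes of -0.07 and 0.28 and did not pass.

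Gonad and adrenal markers were read as well, since these organs lie beside the kidney. None of the 6 gonadal somatic markers tested (of 11) and none of the 3 adrenal markers tested (of 8) passed with edgeR. Over all tested genes 6.36% were called higher and 8.23% lower, so few calls could be looked for among so few markers. The summed gonadal level was 13.5 to 23.7 CPM in the controls and 13.2 to 15.8 CPM in the KO, and Fshr and Foxl2 were at 0 in every library. The summed adrenal level was 2.28 to 6.86 and 2.68 to 3.72 CPM. Single markers moved in both directions without passing. Cyp11a1, the enzyme that opens steroid synthesis, had 15, 14 and 25 reads in the controls and 31, 29 and 25 in the KO (log2 fold change 0.84). Nr5a1, the steroidogenic factor gene, had 11, 23 and 18 against 6, 8 and 8 (log2 fold change -1.05). The log2 fold changes of Inha and Star were -0.52 and -0.20, and those of the adrenal markers Pnmt, Mc2r and Chga were -1.76, -0.16 and 0.07. The part of these tissues in the germline values was not tested.

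**Figure D2:**
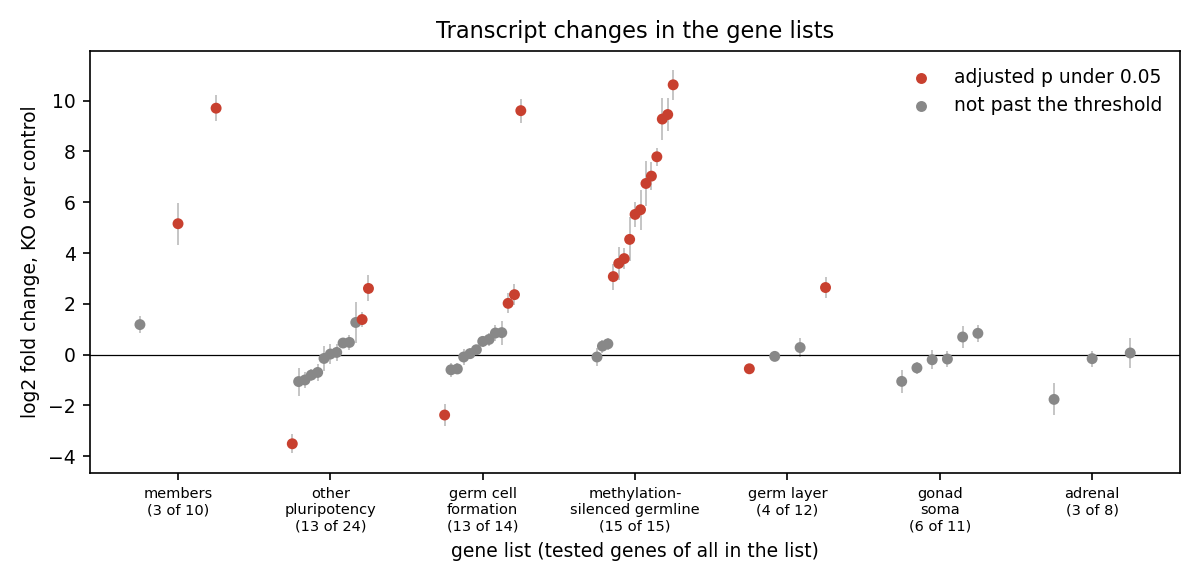
Log2 fold change of each tested gene, KO over control, by list, with bars of 1 SE from edgeR. Red points passed an adjusted p of 0.05. The list of methylation-silenced germline genes reaches higher than the other pluripotency genes, and the gonad and adrenal lists hold no red point.

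Methylation was compared over each gene and 2 kb on either side, where at least 3 CpG positions had 10 or more calls in each sample. That left 8 of the 10 genes. Nanog had no call in any control, and Dppa5a had 1 such position. Of the 8, 4 lost at least 10 percentage points in the KO and passed (Tex19.1, Dppa2, Dppa4 and Zfp42), which has to be read beside the 52.0% of all 23180 gene regions that did the same. None rose, beside 0.0388% of all regions. The median change over all regions was -12.2 points, and over the 4724 regions with at least 80% methylation in the controls it was -24.2 points.

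Tex19.1 (chromosome 11, 121146143 to 121148314) had 90.0%, 90.3% and 90.1% methylation in the controls and 71.4%, 49.5% and 82.9% in the KO, over 4 positions and 70 to 195 calls a sample. All KO samples were below all controls, and they differed among themselves far more than the controls did. The pooled level fell from 90.2% to 66.9% (adjusted p = 0.0114, moderated quasi-binomial model). Without KO 2 the difference was -14.5 points and did not pass (adjusted p = 0.0846). Of the 4 positions, the 3 that lie 210, 214 and 228 bases after the start went from 98.8% to 86.4%, from 95.5% to 82.1% and from 92.0% to 76.1%, and none of them passed. The fourth lies 41 bases past the annotated end of the gene and fell from 78.4% to 32.1% (adjusted p = 0.00187, moderated quasi-binomial model). In the upstream sequence shown above, with the 50 bases after the start, the controls had 30 methylated calls of 30 at 2 CpGs, the adults 26 of 30, and the KO no call, so the loss at the CpGs before the Tex19.1 start was not measured.

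Dppa2 (chromosome 16, 48310274 to 48319513) had 89.2%, 91.5% and 86.0% in the controls and 76.2%, 65.7% and 70.9% in the KO, a pooled fall from 89.7% to 71.5% (adjusted p = 0.000123, moderated quasi-binomial model). Of its 9 positions 4 passed, all at 1086 to 1118 bases outside the lower-coordinate end. The position there with the largest change went from 96.2% to 74.6%. With a flank of 1000 bases, which leaves these 4 out, the difference was -14.5 points (adjusted p = 0.0520). Dppa4 (chromosome 16, 48283735 to 48294292) had 88.1%, 91.3% and 95.6% against 66.2%, 74.9% and 74.8%, a pooled fall from 91.1% to 70.3% (adjusted p = 0.000401, moderated quasi-binomial model). Its 2 called positions, 254 and 225 bases outside the lower-coordinate end, went from 94.8% to 71.8% and from 96.4% to 76.6%. The neighbouring genes thus lost similar amounts (18.2 and 20.8 points, with the difference between them not tested), while 43 KO reads were counted for Dppa2 and 3 for Dppa4.

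Zfp42 (chromosome 8, 43295067 to 43307009) had 90.6%, 87.5% and 87.0% in the controls and 76.0%, 70.2% and 71.6% in the KO, a pooled fall from 88.0% to 72.7% over 23 positions (adjusted p = 2.99e-05, moderated quasi-binomial model). Of these positions 6 passed. The largest change was at 803 bases before the start, from 92.3% to 56.1% (adjusted p = 0.000595, moderated quasi-binomial model). The position nearest to the start, 399 bases before it, went from 71.7% to 58.8% and did not pass. In the window from 250 bases before to 50 after the start the controls had no call, the KO had 8 methylated of 11 and the adults 24 of 82. At 43306996 and 43307008 KO 2 had 4 methylated of 4 calls, while adult 2 and adult 3 had 1 call each. At 43307007, 43307019 and 43307034 KO 1 had 1 unmethylated call each, while adult 3 had 16 calls at each. The KO and adult sums thus rest on unlike positions and cannot be compared. Zfp42 methylation was lower in all 3 KO samples, and its RNA stayed at 0 to 3 reads.

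Dppa3 (chromosome 6, 122626424 to 122630271) had 61.5%, 56.1% and 48.7% in the controls and 52.7%, 41.0% and 46.4% in the KO. The groups overlapped, and the pooled difference of -9.10 points did not pass (adjusted p = 0.0530, moderated quasi-binomial model). It was called with at least 5 calls (-11.8 points), with a flank of 5000 bases (-16.7) and without control 3 (-11.4), KO 1 (-13.1) or KO 3 (-10.8), and was -5.27 points without KO 2. Its mean over positions, with each counted alike, was 56.5% ± 1.44 in the controls and 41.8% ± 5.74 in the KO (SD, n = 3 each, exact permutation p = 0.1, the smallest that 3 against 3 allows). Of its 15 positions, 3 passed, at 212, 243 and 256 bases inside the lower-coordinate end, of which the first went from 89.2% to 62.2%. Pou5f1 (chromosome 17, 35506032 to 35510777) had intermediate levels of 34.5%, 40.4% and 30.5% in the controls and 26.6%, 26.8% and 31.6% in the KO, and the pooled difference of -9.14 points did not pass (adjusted p = 0.0750, moderated quasi-binomial model). It was called without control 3 (-15.8 points, adjusted p = 0.00371) and with a flank of 5000 bases (-14.1 points, adjusted p = 0.00332), and was -5.25 points without control 2 (adjusted p = 0.424). In its upstream window with the 50 bases after the start, 47 of 154 control calls (30.5%) and 22 of 132 KO calls (16.7%) were methylated. In the adults it was 132 of 289 calls (45.7%), and these sums were not tested. Before the start the controls had calls at 35505810 alone, 3 methylated of 3 in control 1 and 5 of 5 in control 2. Their other calls lay 11 to 49 bases after the start, outside the sequence shown. The controls had calls at 6 positions and the KO and adults at 8, so the sums cover unlike positions.

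Prdm14 (chromosome 1, 13113428 to 13127163) and L1td1 (chromosome 4, 98726754 to 98738486) had little methylation to lose. Prdm14 was at 7.97%, 8.71% and 8.29% in the controls and 5.75%, 4.99% and 4.69% in the KO, with all KO samples below all controls. Its change of -3.25 points had an adjusted p of 0.0135 (moderated quasi-binomial model) but was under the minimum of 10. With at least 20 calls it was -0.824 points (adjusted p = 0.488, same model). As a share of the control mean over its 27 positions, each counted alike, 31.0% was lost. Its 2 positions that passed lie at 5223 and 5228 bases inside the lower-coordinate end and went from 98.8% to 78.5% and from 94.1% to 72.1%. L1td1 was at 8.94%, 3.81% and 5.40% in the controls and 5.41%, 7.69% and 5.71% in the KO, with overlapping groups and a change of 1.05 points (adjusted p = 0.641, moderated quasi-binomial model). None of its 13 positions, 185 to 474 bases after the start, passed. Over the 6519 regions under 20% in the controls the median change was -0.43 points.

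Over single positions, 18 of the 103 tested in these regions were lower in the KO and none higher, beside 35.3% of all 380162 positions tested that were lower and 0.128% that were higher. Positions 1 base apart are the 2 strands of 1 CpG, and neighbours share reads, so these are not independent.

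**Figure D3:**
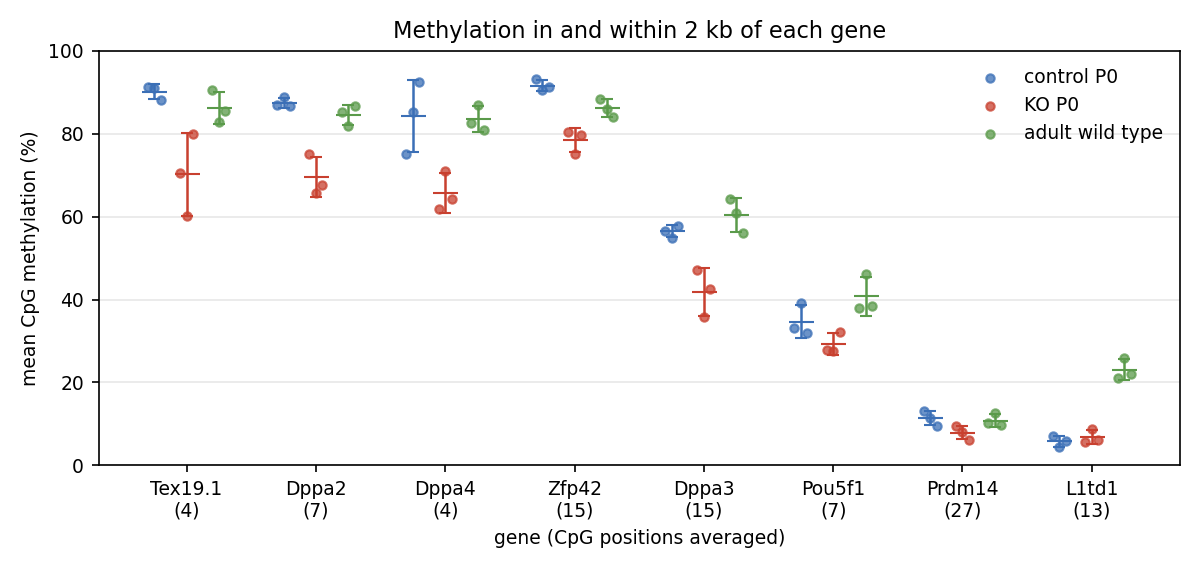
Mean methylation (%) of each gene, averaged over CpG positions that every one of the 9 samples covered with 10 calls or more. Points are samples, bars the mean and SD of 3. KO samples lie below all controls for Tex19.1, Dppa2, Dppa4, Zfp42, Dppa3 and Prdm14, and adult L1td1 lies above both P0 groups.

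**Figure D4:**
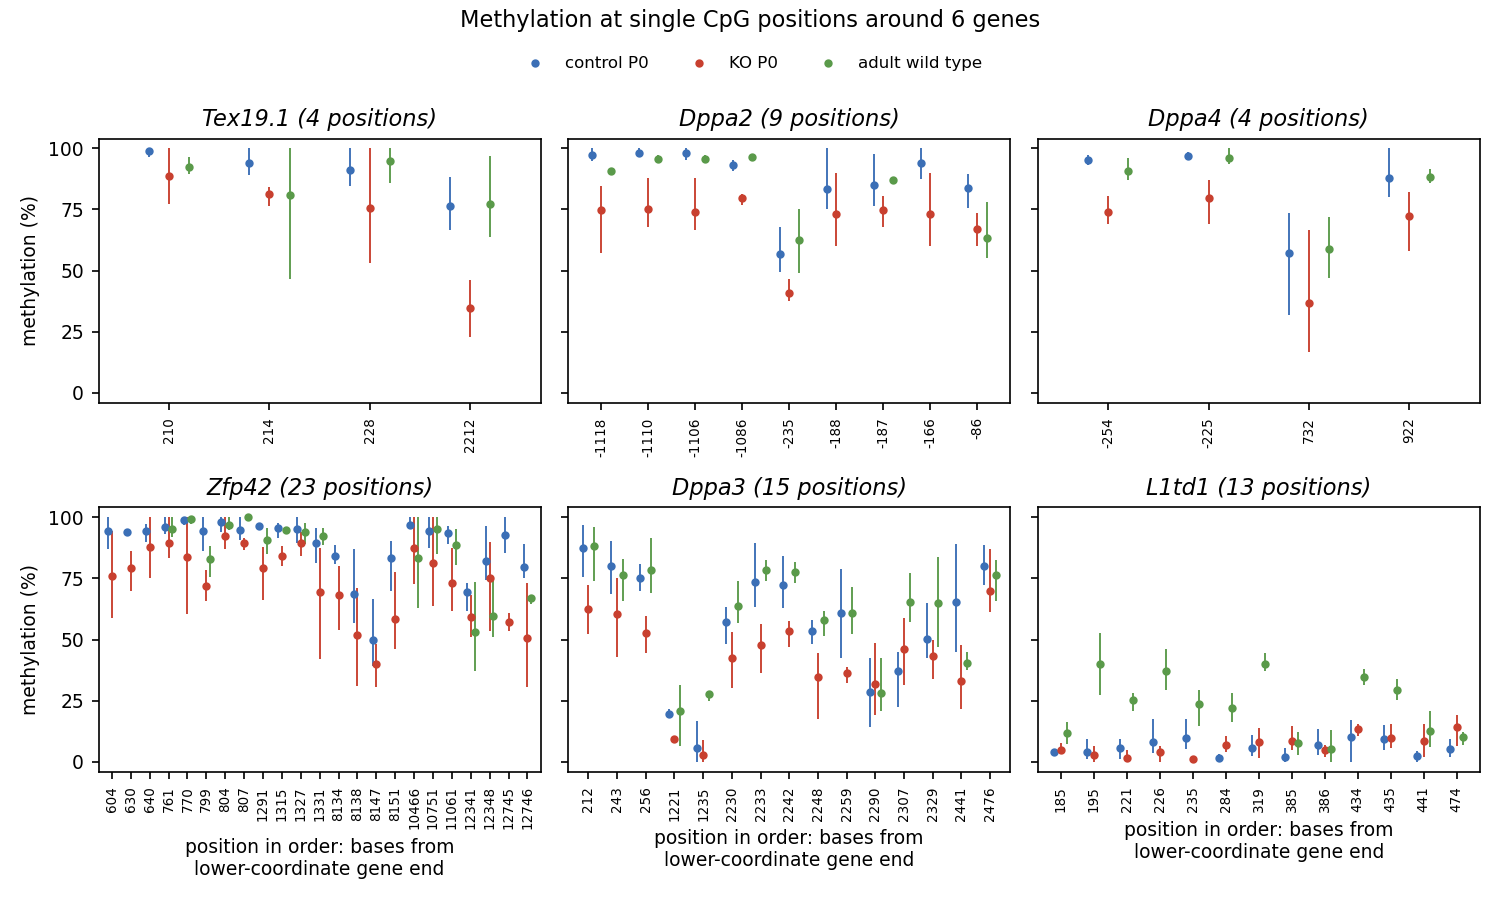
Methylation (%) at single positions of 6 genes, in order along the chromosome. The axis gives the distance in bases from the gene's lower-coordinate end. Points are means and lines the lowest to highest of 3 samples, drawn for groups with at least 10 calls in each sample. The positions where the KO is lowest include the last of Tex19.1, the first 4 of Dppa2 and all those of Dppa4. The adults stand apart at most L1td1 positions.

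Set side by side, methylation and RNA did not follow one pattern among the 8 genes with both measures. Tex19.1 lost methylation over its region and gained RNA of over 10 CPM. Its only called position lay past the end of the gene, and loss before its start was not measured. Dppa2 lost methylation over its region, with all called positions outside the gene's lower-coordinate end, and gained RNA under 1 CPM. Dppa4 and Zfp42 lost methylation and had 0 to 3 reads in each library. L1td1 had under 10% methylation near its start in each control and KO sample. Over all genes, 420 of 9104 regions called lower had RNA called higher (4.61%), and 139 of 3011 that were also at least 80% methylated in the controls (4.62%), against 3.94% of all 17841 regions and 3.10% of those under 20% in the controls. As a share of the regions whose RNA could be tested, these were 6.33%, 8.85%, 5.08% and 3.76%, and the differences were not tested. Beside the 52.0% of all gene regions called lower, 11 of 12 regions of the methylation-silenced germline genes were, with a median control level of 91.2%. Among the other pluripotency genes 8 of 21 were, with a median control level of 34.9%, and among germ layer genes 1 of 12, with 3.83%. The 52.0% covers regions at all control levels. The median change of the germline list was -21.4 points, beside -24.2 points over all regions with at least 80% in the controls.

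In the comparison of wild-type adults with P0 controls, which shares its control samples with the KO comparison, age and genotype differ together and cannot be told apart. Methylation was averaged over the cells of a sample, so a different mix of cells and a change within cells cannot be told apart either. Of the 8 genes, only L1td1 changed, beside 12.3% of 26829 gene regions that changed in either direction (805 higher and 2507 lower in the adults). L1td1 had 8.94%, 3.81% and 5.40% in the controls and 20.9%, 25.2% and 22.0% in the adults, with no overlap. The pooled level rose from 5.28% to 22.8% (17.5 points, adjusted p = 2.74e-05, moderated quasi-binomial model), and it passed under all 9 alternative settings run, at 15.8 to 18.5 points. The mean over its 13 positions was 5.78% ± 1.35 in the controls, 6.83% ± 1.77 in the KO and 23.1% ± 2.56 in the adults (SD, n = 3 each). The gain was uneven along these positions. At 195 bases after the start the adults had 27.5%, 52.8% and 39.2% against 9.38%, 1.23% and 1.25% in the controls, while at 386 bases they had 12.9%, 0% and 3.17% against 13.5%, 2.95% and 3.70%. These 2 positions were picked after their values were seen. No adult RNA was analysed here.

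The other 7 genes did not pass between adults and controls. Tex19.1 was at 89.9%, 81.9% and 81.8% in the adults (-8.12 points, adjusted p = 0.167), Zfp42 at 86.7%, 83.1% and 80.6% (-5.84 points, adjusted p = 0.0529) and Dppa2 at 88.6%, 87.5% and 89.6% (-1.06 points, adjusted p = 0.758), all from the moderated quasi-binomial model. All 3 adults were below all 3 controls at Zfp42 and at Tex19.1, over the positions of this comparison, while those of Dppa2 overlapped the controls. At the Zfp42 position 399 bases before the start the adults had 73.3%, 49.4% and 37.1% against 73.1%, 73.3% and 61.5% in the controls. In the window around the start 29.3% of the 82 adult calls were methylated, with no control call to set beside them. At Dppa3 and Pou5f1, over the same kind of positions, all 3 adults were above all 3 controls. Their differences were 4.73 and 5.72 points (adjusted p = 0.206 and 0.174, same model). Dppa4 and Prdm14 had overlapping groups and differences of -4.72 and -3.35 points (adjusted p = 0.301 and 0.0666, same model). At its single covered position, 1823 bases outside the higher-coordinate end, Dppa5a had 57.9%, 45.5% and 41.7% in the controls, 29.6%, 76.7% and 90.0% in the KO, and 73.1%, 69.7% and 65.5% in the adults, so its KO samples alone spanned both other groups.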

How the data were processed

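The 6 RNA-seq files hold raw read counts per gene, as deposited, whose 5 closing lines of unassigned reads entered neither library sizes nor tests. The 9 RRBS files hold, per cytosine, a methylation percent and the numbers of methylated and unmethylated calls, as deposited. Per the submitters' processing notes, Trim Galore, Bismark, STAR 2.4.1d and HTSeq 0.6.1 were used with builds mm10 and GRCm38, and the strand setting is not given in the sources used here. The percent values were recomputed from the deposited calls.

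Counts were tested with edgeR 4.0.16 in R 4.3.3 (quasi-likelihood, TMM, filterByExpr, Benjamini-Hochberg over 18132 genes, threshold 0.05), with DESeq2 1.42.0 and limma 3.58.1 as alternatives. On simulated counts over 18132 genes for this comparison, 47 of 100 genes changed 2-fold and 75 of 100 changed 4-fold were recovered. Methylated and unmethylated calls, summed over positions with at least 10 calls in each sample of a region with at least 3 such positions, were compared in a logistic model with quasi-binomial errors, whose dispersion was moderated over all regions with limma and not allowed under 1, and single positions likewise. A call needed an adjusted p under 0.05 and 10 points. Means over positions were compared by two-sided exact permutation tests. Regions were RefSeq GRCm38.p6 gene bounds with 2000 bases on either side. Of the 330674 RRBS positions in the table's upstream windows, 99.6% lay on a CpG of that build.

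The 10 genes and all lists were chosen with earlier results of these data known, and no test was made over a list. Named were the 10 genes, their nearest annotated neighbours, the 5 genes most like the member with the highest KO level, and, for the pathway, gonad and adrenal lists, the 3 tested genes with the smallest p and the 2 most abundant, and positions nearest an annotated end or with the largest difference. Kidney cell type markers are given as counts, and for the tubule, nephron progenitor, stromal and endothelial lists also as sums. Genes named outside this rule were chosen after their values were seen. Same-numbered RNA samples did not deviate together (mean correlation of deviations -0.178), so the numbers were not taken as pairs. Intervals cover counting error only.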

Additional observations from a re-analysis of the deposited data

How the results depend on the processing

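Tex19.1 and Dppa2 passed as higher in the KO under all 13 RNA alternatives, with log2 fold changes of 9.06 to 11.52 and 4.49 to 6.95. The count of the 10 genes called higher was 2 to 3 with 1 library left out. Over all genes the calls moved more than that: 1153 higher and 1493 lower became 2512 and 2561 without control 3, 647 and 701 without KO 1, and 528 and 681 at an adjusted p under 0.01. The 4 regions called lower in the KO became 2 with at least 20 calls per position, and 3 to 6 with 1 sample left out. At 20 calls Zfp42 and Dppa2 still passed, while Tex19.1 and Dppa4 had too few positions to be tested. Over all gene regions, 12054 called lower of 23180 became 7484 of 13547 at 20 calls. The single positions called lower went from 18 of 103 tested to 31 of 170 tested with at least 5 calls. With 1 sample left out they were 8 to 20 (10 without control 2, 8 without KO 2). The adult comparison called 1 region (L1td1) under each alternative run. L1td1 in the KO, never called, ran from -0.668 (without control 2) to 2.01 points with 1 sample left out. Dppa2 in the adults, never called, reversed from -1.06 to 0.674 points with at least 20 calls, and ran from -2.11 to 0.620 (without control 2) with 1 sample left out. With a replicate block the counts were 2 genes, 4 KO regions, 1 adult region and 15 positions, and the labels do not say that the numbers pair the samples. The regions of Dppa3 and Pou5f1, not called, were called under 5 and 2 of 11 alternatives, over -16.7 to -5.27 and -15.8 to -5.25 points. Depth limits the 7 genes with 0 to 5 reads. RRBS coverage, whatever the depth of the library, limits Nanog, Dppa5a and the Tex19.1 upstream window.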

Other observations

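The KO libraries reached CpG positions around these genes that the other libraries did not. In and within 2 kb of Nanog, calls were found at 0 positions in the controls, 17 in the KO (64 calls) and 5 in the adults (7 calls). For L1td1 the numbers of positions with a call in at least 1 sample were 41 in the controls, 73 in the KO and 39 in the adults, and for Dppa2 they were 18, 33 and 22. Tex19.1 did not share this, with 30, 28 and 27. Over the whole genome the KO files listed 2464753 to 3033405 positions, the controls 2211044 to 2528174 and the adults 2363728 to 2510080, although the KO files held no more than 48915970 calls each and control 2 held 88765177. The comparisons above used positions covered in each sample compared, and what the extra positions hold was not tested.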
